A study of Mus musculus with 30 samples.

Results

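Fatty acid synthesis in the liver was followed through 10 genes: Srebf1, which encodes the transcription factor SREBP-1, and Fasn, Acaca, Acacb, Acly, Scd1, Me1, Elovl6, Gpam and Thrsp. Every probe set of the array that carries exactly 1 gene symbol, equal to that of a member, was taken, which gave 12 of 35556 probe sets and 10 of the 18820 genes with such a probe set. Acaca and Me1 have a pair of probe sets each, numbered 1 and 2 from the brighter to the dimmer, and the other 8 genes have 1 each. The values are log2 intensities after robust multi-array averaging (RMA), with 1 array of the Affymetrix Mouse Gene 1.1 ST type for each liver. On GRCm38.p6 of RefSeq, Srebf1, Fasn, Acaca and Acly lie on chromosome 11, Gpam and Scd1 on 19, Acacb on 5, Me1 on 9, Elovl6 on 3 and Thrsp on 7. A level on this scale can be set against the same probe set in other livers but not against another gene.

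The livers came from male mice of approximately 8 weeks of age with whole-body deletions on a C57BL/6 background: PPARα-/- (the Ppara tm1Gonz allele), CREB3L3-/-, combined PPARα/CREB3L3-/- bred from both lines, and wild-type (WT) mice. Mice had either been fed a ketogenic diet for 4 days, with food present until they were killed, or been fasted for 16 h. There were 4 livers per group, except for 3 in both PPARα-/- groups, 30 in all. The mice were kept on standard chow before either regimen, and livers of chow-fed mice were not analysed here, so each regimen was set against the other only.

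De novo fatty acid synthesis starts from citrate that leaves the mitochondria. ATP citrate lyase (Acly) splits it into acetyl-CoA, the acetyl-CoA carboxylases (Acaca, Acacb) turn this into malonyl-CoA, and fatty acid synthase (Fasn) builds palmitate with NADPH, part of which comes from malic enzyme (Me1). Elovl6 lengthens the product, Scd1 desaturates it, and the mitochondrial acyltransferase encoded by Gpam starts its esterification. SREBP-1 drives these genes when insulin is high, and Thrsp (Spot 14) is a thyroid hormone-responsive protein that favours lipogenesis. In mouse liver, Me1 and Scd1 are also known as targets of PPARα, the receptor that fatty acids activate during fasting, and CREB3L3 is a liver transcription factor released from the endoplasmic reticulum membrane by cleavage.

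Promoter stretches are shown for Srebf1, Fasn and Thrsp, because these 3 genes carry the main contrasts below. The sequences are those of RefSeq on GRCm38.p6, written 5′ to 3′ on the strand of the gene, and end at the base before the annotated start. Capitals mark CCAAT (the box bound by NF-Y) and GGGCGG (the Sp1 box), read on both strands. Among the Srebf1 starts, the one shown was picked because its window holds both of these boxes. Of the other Srebf1 windows, one holds only CCAAT and the other only GGGCGG.
Srebf1, the start nearest to the gene's end (chr11:60210472-60210671, minus strand): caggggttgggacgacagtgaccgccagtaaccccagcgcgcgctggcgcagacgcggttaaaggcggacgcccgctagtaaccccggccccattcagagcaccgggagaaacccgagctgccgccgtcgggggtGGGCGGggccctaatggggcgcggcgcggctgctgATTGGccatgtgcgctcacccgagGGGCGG
Fasn (chr11:120824548-120824747, minus strand): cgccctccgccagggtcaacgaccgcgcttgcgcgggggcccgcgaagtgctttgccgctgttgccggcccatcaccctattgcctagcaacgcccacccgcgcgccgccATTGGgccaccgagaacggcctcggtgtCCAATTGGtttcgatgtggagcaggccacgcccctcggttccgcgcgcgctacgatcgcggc
Thrsp (chr7:97417551-97417750, minus strand): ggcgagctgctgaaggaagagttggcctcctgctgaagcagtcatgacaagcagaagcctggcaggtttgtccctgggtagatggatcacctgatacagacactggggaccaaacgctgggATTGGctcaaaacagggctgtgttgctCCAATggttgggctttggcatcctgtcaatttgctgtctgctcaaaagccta

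The Fasn stretch holds CCAAT at positions -90, -62 and -59, where -1 is the last base before the start and the last 2 matches overlap. The Thrsp stretch holds it at -79 and -52, and the Srebf1 stretch at -30, between GGGCGG at -65 and -6. The table gives promoters for 9 of the 10 genes, in 13 windows of 300 bases (250 before and 50 after the start), since Srebf1 has 3 starts and Me1 and Gpam have 2 each. CCAAT was found in 8 of these 13 windows, against 37.4% of all 32851 windows, and GGGCGG in 5, against 35.7%. Neither TCACNCCAC, a form of the sterol regulatory element, nor CACGTG, a form of the E-box, was matched in any of the 13. These letters occur in 1.24% and 7.15% of all windows. Variants of either element were not searched for, so no match does not show that the element is absent. A match is a description of the sequence and not a site that was measured.

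Array medians ran from 4.22 to 4.38, and livers of 1 group correlated with each other at 0.978 to 0.990. Creb3l3 itself read 4.29 to 5.36 in all livers of both genotypes without CREB3L3 and 9.49 to 11.28 in all others, as labelled. Ppara signal read 6.62 to 9.35 in livers without PPARα and 8.01 to 10.54 in the others. The probes lie along the whole transcript and the allele removes part of the gene, so Ppara does not check the genotype. The members lie high in the range of the array, with means over the 30 livers between the 72.3th percentile of all probe sets for Srebf1 and the 95.4th for Me1 probe set 1. In whole liver, fewer cells of a type and less RNA per cell cannot be told apart.

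**Figure D1:**
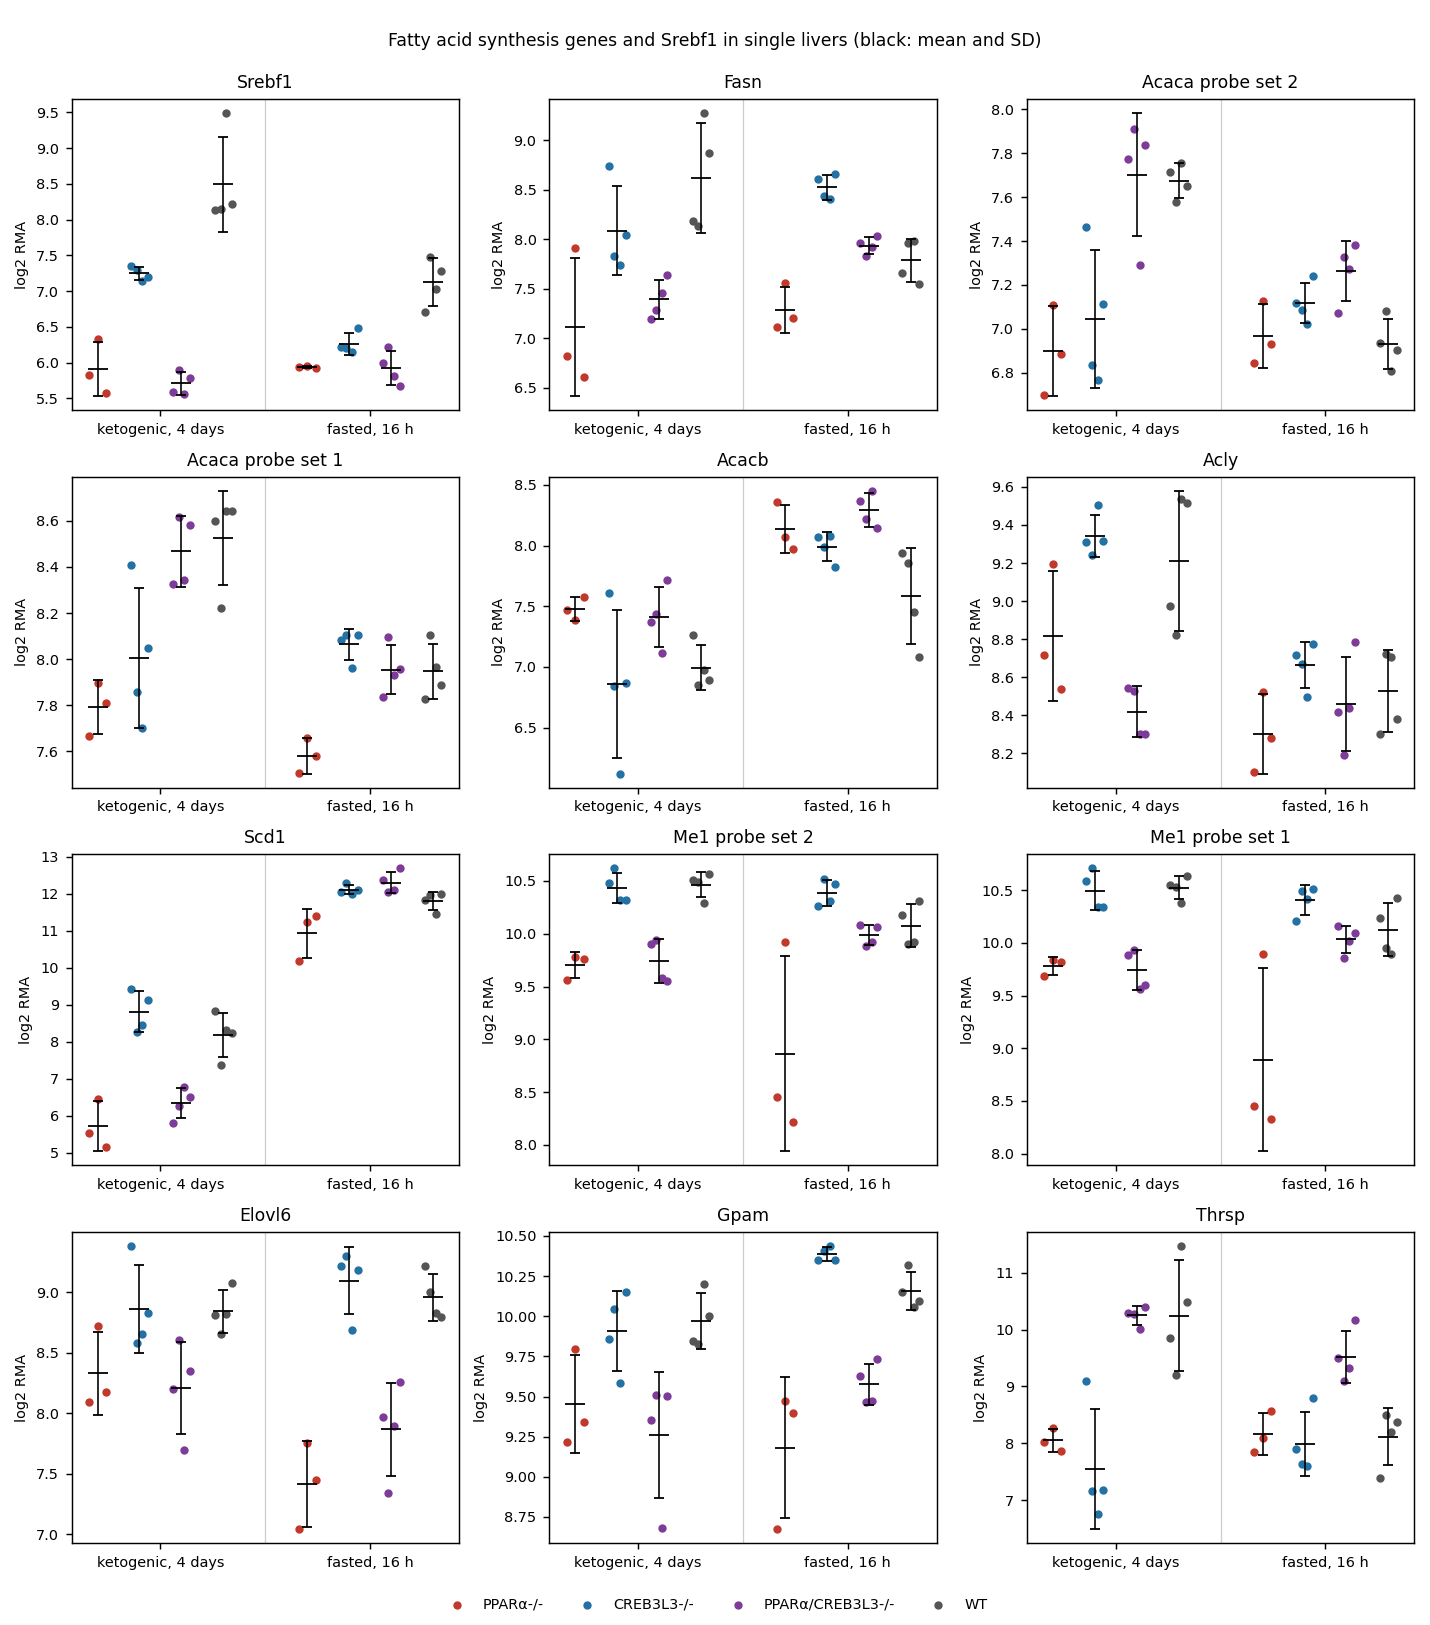
Log2 RMA level (y axis) of the 12 probe sets in each liver (points) by regimen and genotype (x axis, colours), with mean and SD in black and n = 4 per group (3 for PPARα-/-). Srebf1 lies between 8.13 and 9.49 in the 4 WT livers on the ketogenic diet and at or below 7.48 in every other liver.

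Srebf1 was the member that fell in all 3 knockouts under both regimens, and its level was highest in WT livers on the ketogenic diet. On that diet it read 5.83, 6.32 and 5.58 in PPARα-/-, 7.35, 7.29, 7.14 and 7.20 in CREB3L3-/-, 5.59, 5.90, 5.56 and 5.79 in PPARα/CREB3L3-/- and 8.13, 8.15, 9.49 and 8.21 in WT livers. After the fast it read 5.94, 5.95 and 5.92 in PPARα-/-, 6.22, 6.20, 6.14 and 6.49 in CREB3L3-/-, 5.99, 6.21, 5.81 and 5.67 in PPARα/CREB3L3-/- and 6.71, 7.48, 7.03 and 7.28 in WT livers. Every knockout liver was below every WT liver of its regimen, and WT replicate 3 on the diet stood far above the other WT livers. In the order of the 8 group means, ketogenic WT (8.49) came first, then ketogenic CREB3L3-/- (7.25) and fasted WT (7.12), whose ranges overlap, then fasted CREB3L3-/- (6.26). The 4 groups without PPARα came last, between 5.71 and 5.94, each overlapping its neighbour in the order.

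On the ketogenic diet Srebf1 in PPARα-/- livers differed from WT by -2.58 on the log2 scale (SE 0.23, adjusted p = 4.4e-09). The difference was -1.25 (SE 0.22, adjusted p = 4.3e-05) for CREB3L3-/- livers, and PPARα/CREB3L3-/- livers stood at -2.78 (SE 0.22, adjusted p = 1.7e-10). Without WT replicate 3 these differences were -2.25, -0.92 and -2.45, all still called. After the fast PPARα-/- livers stood at -1.19 (SE 0.23, adjusted p = 0.0021212) and CREB3L3-/- livers at -0.86 (SE 0.22, adjusted p = 0.043018). The fasted combined knockout differed from WT by -1.20 (SE 0.22, adjusted p = 3.7e-04). The study lists Srebf1 among genes lower in all 3 fasted knockouts, from these same livers, so its fasted calls are not independent evidence. The call in fasted CREB3L3-/- livers was lost when any of 6 of the 8 arrays was left out, at differences between -0.74 and -0.89. The 3 knockouts share the WT livers of their regimen.

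The fall of Srebf1 was larger on the diet than after the fast for PPARα-/- (difference of the 2 effects -1.39, SE 0.33, adjusted p = 0.0082464) and for PPARα/CREB3L3-/- (-1.58, SE 0.31, adjusted p = 6.5e-04). For CREB3L3-/- the difference was -0.39 (95% interval -1.02 to 0.25) and was not called. In PPARα-/- the call was lost without ketogenic PPARα-/- replicate 3, at -1.23. The combined knockout did not differ from PPARα-/- beyond the spread, at -0.20 (95% interval -0.69 to 0.28) on the diet and -0.02 (-0.50 to 0.47) after the fast. Against CREB3L3-/- it fell on the diet by 1.54 on the log2 scale (SE 0.22, adjusted p = 2.6e-06) and was at -0.34 (-0.79 to 0.10) after the fast.

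Over the members, no probe set was called higher than in WT in any knockout under either regimen. The criterion for a call was a limma P below 0.001 and a change of more than 1.2-fold. After the fast this did not hold under other settings. Fasn was called higher in CREB3L3-/- livers in fits of the compared groups or of the fasted arrays alone (1 higher and 1 lower of the 12). In PPARα/CREB3L3-/- livers Thrsp and Acacb were called higher with the fasted arrays alone, with array weights, or by an adjusted p under 0.05 (2 higher and 3 lower), Thrsp also in a fit of the compared groups alone (1 higher and 3 lower), and Acacb also without fasted WT replicate 1 (1 higher and 2 lower). After the fast 5 of the 12 were lower in PPARα-/- livers, against 1.77% of all probe sets lower and 2.23% higher. In CREB3L3-/- livers 1 of 12 was lower (background 0.599% lower, 0.787% higher), and in PPARα/CREB3L3-/- livers 2 of 12 (2.79% lower, 4.19% higher). On the ketogenic diet 6 of 12 were lower in PPARα-/- (4.81% lower, 6.11% higher), 4 of 12 in CREB3L3-/- (8.56% lower, 12.8% higher) and 6 of 12 in PPARα/CREB3L3-/- livers (6.87% lower, 7.11% higher). In a limma fit of ketogenic CREB3L3-/- and WT livers alone, 0 of these 12 passed, with 4 at an unadjusted p under 0.05. The median log2 difference of the 12 was -0.75, -0.10 and -0.72 in these 3 knockouts on the diet and -0.69, 0.21 and -0.03 after the fast, beside medians between -0.06 and 0.01 over all probe sets. With a repeated quantile normalization or median centring the share of higher among all called probe sets moved from 55.7% to 45.6% (quantile) in fasted PPARα-/-, from 56.8% to 33.3% (centring) in fasted CREB3L3-/- and from 60% to 45.2% (centring) in fasted PPARα/CREB3L3-/-.

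**Figure D2:**
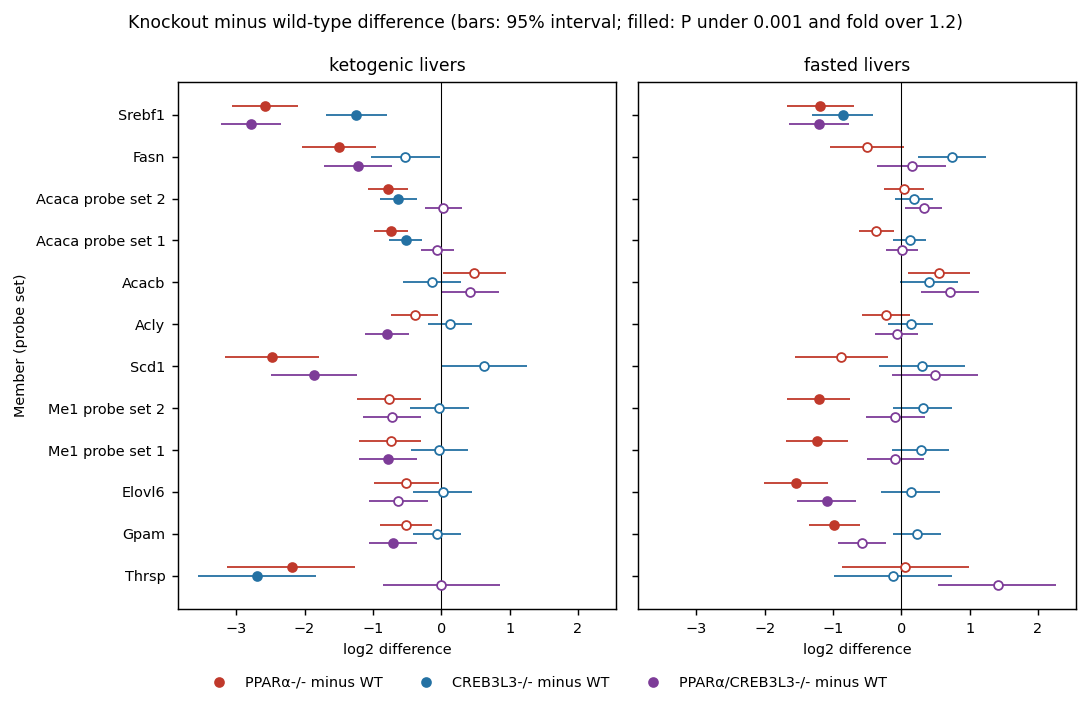
Log2 difference from WT (x axis) of each member (y axis) in PPARα-/-, CREB3L3-/- and PPARα/CREB3L3-/- livers (colours) on the ketogenic diet (left) and after the fast (right). Bars are 95% intervals and filled points are called; every filled point lies left of 0.

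Acly, the source of cytosolic acetyl-CoA, was called lower than in WT on the diet only in the combined knockout. In ketogenic livers it read 8.72, 9.20 and 8.54 in PPARα-/-, 9.31, 9.24, 9.50 and 9.31 in CREB3L3-/-, 8.54, 8.53, 8.30 and 8.30 in PPARα/CREB3L3-/- and 8.98, 8.82, 9.54 and 9.52 in WT. All 4 livers without both factors were below all WT and all CREB3L3-/- livers. The difference from WT was -0.79 (SE 0.16, adjusted p = 3.6e-04), and that from CREB3L3-/- was -0.92 (SE 0.16, adjusted p = 3.4e-05). PPARα-/- livers were at -0.39 (95% interval -0.74 to -0.05) and CREB3L3-/- livers at 0.13 (-0.19 to 0.45), neither called. In fasted livers Acly read 8.11, 8.52 and 8.28 in PPARα-/-, 8.72, 8.67, 8.50 and 8.78 in CREB3L3-/-, 8.42, 8.19, 8.44 and 8.79 in PPARα/CREB3L3-/- and 8.30, 8.72, 8.71 and 8.38 in WT, groups that overlap with no call against WT.

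Acaca, the cytosolic carboxylase that commits acetyl-CoA to synthesis, fell in each single knockout on the diet but not in the combined one. Probe set 1 read 7.67, 7.90 and 7.81 in ketogenic PPARα-/-, 8.41, 7.86, 7.70 and 8.05 in CREB3L3-/-, 8.32, 8.62, 8.34 and 8.58 in PPARα/CREB3L3-/- and 8.60, 8.22, 8.64 and 8.64 in WT livers. Probe set 2 read 6.70, 7.11 and 6.89 in PPARα-/-, 7.46, 6.84, 6.77 and 7.11 in CREB3L3-/-, 7.77, 7.91, 7.29 and 7.84 in PPARα/CREB3L3-/- and 7.72, 7.58, 7.76 and 7.65 in WT livers. On both probe sets every PPARα-/- liver was below every WT liver, while the combined knockout overlapped WT. CREB3L3-/- livers overlapped WT on probe set 1, with replicate 1 at 8.41 and WT replicate 2 at 8.22, but not on probe set 2. Over the 30 livers the pair correlated at r = 0.882, a description of 1 gene read by 2 probe sets of the same arrays.

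The difference of Acaca from ketogenic WT was -0.73 (SE 0.13, adjusted p = 8.7e-05) and -0.78 (SE 0.14) in PPARα-/- livers on probe sets 1 and 2, and -0.52 (SE 0.12, adjusted p = 7.7e-04) and -0.63 (SE 0.13) in CREB3L3-/- livers. In the combined knockout it was -0.06 (95% interval -0.30 to 0.18) and 0.03 (-0.24 to 0.30). Set against PPARα-/- on the diet, PPARα/CREB3L3-/- livers rose by 0.67 (SE 0.13, adjusted p = 0.0033322) and 0.80 (SE 0.14, adjusted p = 0.0023771), with no overlap. CREB3L3-/- replicate 1 was the highest liver of its group, and without it the CREB3L3-/- difference was -0.66 and -0.77. The probe set 1 call there was lost without CREB3L3-/- replicate 3, at -0.42.

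In fasted livers Acaca was not called against WT in any knockout. Probe set 1 read 7.50, 7.66 and 7.58 in PPARα-/-, 8.08, 8.11, 7.96 and 8.10 in CREB3L3-/-, 7.84, 8.10, 7.93 and 7.96 in PPARα/CREB3L3-/- and 7.83, 8.11, 7.97 and 7.89 in WT. Probe set 2 read 6.84, 7.13 and 6.93 in PPARα-/-, 7.12, 7.09, 7.02 and 7.24 in CREB3L3-/-, 7.07, 7.33, 7.27 and 7.38 in PPARα/CREB3L3-/- and 6.93, 7.08, 6.81 and 6.90 in WT. The PPARα-/- livers lay below all WT livers on probe set 1, at a difference of -0.37 (95% interval -0.62 to -0.11, adjusted p = 0.08594), and among them on probe set 2, at 0.04 (-0.26 to 0.33).

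Acacb, the isoform at the mitochondrial membrane whose malonyl-CoA holds back fatty acid entry, was not called against WT in any knockout. On the diet PPARα-/- livers ranged from 7.38 to 7.58, CREB3L3-/- livers from 6.12 to 7.61, PPARα/CREB3L3-/- livers from 7.12 to 7.72 and WT livers from 6.85 to 7.26. After the fast PPARα-/- livers ranged from 7.98 to 8.36, CREB3L3-/- livers from 7.82 to 8.08, PPARα/CREB3L3-/- livers from 8.14 to 8.45 and WT livers from 7.08 to 7.93. Its difference from WT after the fast was 0.55 (95% interval 0.09 to 1.01) in PPARα-/- and 0.71 (0.29 to 1.13, adjusted p = 0.022386) in PPARα/CREB3L3-/-. The combined knockout passed the threshold without fasted WT replicate 1, at 0.83.

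Fasn, the synthase itself, fell on the diet in both genotypes without PPARα. It read 6.82, 7.91 and 6.61 in ketogenic PPARα-/-, 8.74, 7.83, 7.74 and 8.04 in CREB3L3-/-, 7.20, 7.28, 7.46 and 7.64 in PPARα/CREB3L3-/- and 8.18, 8.13, 9.28 and 8.87 in WT livers. All livers without PPARα were below all WT livers, and CREB3L3-/- livers overlapped WT. For PPARα-/- livers the difference from WT came to -1.50 (SE 0.26, adjusted p = 1.3e-04), and without WT replicate 3 to -1.28. The combined knockout stood at -1.22 (SE 0.24, adjusted p = 4.2e-04) and remained called without that liver. CREB3L3-/- livers were at -0.53 (95% interval -1.03 to -0.02), and at -0.31 without it.

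After the fast Fasn read 7.11, 7.55 and 7.20 in PPARα-/-, 8.61, 8.44, 8.40 and 8.66 in CREB3L3-/-, 7.96, 7.83, 7.92 and 8.04 in PPARα/CREB3L3-/- and 7.66, 7.97, 7.98 and 7.55 in WT livers. Every fasted CREB3L3-/- liver was above every WT liver, at a difference of 0.74 (95% interval 0.24 to 1.24, adjusted p = 0.15562) that did not pass the threshold in the fit of all arrays. The effect of the combined deletion on Fasn differed between the regimens by -1.37 (SE 0.35, adjusted p = 0.0073192), a call lost when any of 8 of the 16 arrays was left out, at -1.15 without ketogenic WT replicate 3. For CREB3L3-/- the same difference was -1.27 (SE 0.35, adjusted p = 0.0079785), just outside the call, and it passed at -1.49 without ketogenic CREB3L3-/- replicate 1.

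Me1, the malic enzyme that yields NADPH, was lower in fasted PPARα-/- livers. Me1 probe set 1 read 8.45, 9.90 and 8.33 in PPARα-/-, 10.21, 10.49, 10.41 and 10.51 in CREB3L3-/-, 10.16, 9.85, 10.02 and 10.10 in PPARα/CREB3L3-/- and 10.24, 9.95, 9.89 and 10.42 in WT. Probe set 2 read 8.45, 9.92 and 8.22 in PPARα-/-, 10.26, 10.51, 10.31 and 10.47 in CREB3L3-/-, 10.08, 9.89, 9.93 and 10.07 in PPARα/CREB3L3-/- and 10.18, 9.90, 9.92 and 10.31 in WT. PPARα-/- replicate 2 lay within the WT range and the other 2 PPARα-/- livers far below it, so the fall rests on 2 of 3 livers.

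The difference of Me1 in fasted PPARα-/- livers was -1.23 (SE 0.22, adjusted p = 7.7e-04) on probe set 1 and -1.21 (SE 0.23) on probe set 2, and -1.74 on both without replicate 2. Set against PPARα-/-, the fasted combined knockout was higher by 1.14 (SE 0.22, adjusted p = 0.0049201) and 1.12 (SE 0.23), where probe set 2 lost the call without PPARα-/- replicate 3, at 0.80, and against WT it was at -0.09 on both (95% intervals -0.51 to 0.33 and -0.52 to 0.34). The pair of Me1 probe sets differed by at most 0.13 in any liver (r = 0.996 over 30), and whether both read the same transcripts was not tested.

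On the diet Me1 probe set 1 read 9.68, 9.84 and 9.82 in PPARα-/-, 10.59, 10.71, 10.34 and 10.34 in CREB3L3-/-, 9.89, 9.93, 9.56 and 9.60 in PPARα/CREB3L3-/- and 10.55, 10.53, 10.38 and 10.64 in WT. Probe set 2 read 9.56, 9.78 and 9.76 in PPARα-/-, 10.48, 10.62, 10.32 and 10.32 in CREB3L3-/-, 9.90, 9.94, 9.58 and 9.55 in PPARα/CREB3L3-/- and 10.51, 10.49, 10.29 and 10.57 in WT. All 7 livers without PPARα were below all WT livers. The call was made only on probe set 1 in the combined knockout, at -0.78 (SE 0.20, adjusted p = 0.0057927), and was lost when any of 7 of the 8 arrays was left out, at -0.72 to -0.83. PPARα-/- livers were at -0.74 (adjusted p = 0.018381) and -0.76 (adjusted p = 0.017893).

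Elovl6, which lengthens palmitate, had its lowest levels in the fasted groups without PPARα. It read 7.04, 7.75 and 7.45 in fasted PPARα-/-, 9.22, 9.30, 8.69 and 9.18 in CREB3L3-/-, 7.97, 7.34, 7.90 and 8.26 in PPARα/CREB3L3-/- and 9.21, 9.0, 8.83 and 8.79 in WT livers. All 7 livers without PPARα were below the 8 with it. PPARα-/- livers differed from WT by -1.54 (SE 0.23, adjusted p = 8.1e-05) and the combined knockout by -1.09 (SE 0.21, adjusted p = 7.7e-04), and the difference of the combined knockout from CREB3L3-/- was -1.23 (SE 0.21, adjusted p = 2.8e-04). On the diet it read 8.09, 8.72 and 8.17 in PPARα-/-, 9.38, 8.58, 8.65 and 8.83 in CREB3L3-/-, 8.20, 8.60, 7.69 and 8.35 in PPARα/CREB3L3-/- and 8.81, 8.65, 8.82 and 9.08 in WT, with no call. The regimen difference of the PPARα-/- effect was 1.03 (95% interval 0.37 to 1.70, adjusted p = 0.052092) and was not called.

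Scd1, the Δ9-desaturase, showed the largest change of the members between the regimens. On the diet it read 5.54, 6.47 and 5.15 in PPARα-/-, 9.43, 8.27, 8.44 and 9.13 in CREB3L3-/-, 5.82, 6.26, 6.77 and 6.51 in PPARα/CREB3L3-/- and 8.83, 7.39, 8.32 and 8.25 in WT livers. In fasted livers it read 10.18, 11.24 and 11.40 in PPARα-/-, 12.07, 12.30, 11.99 and 12.11 in CREB3L3-/-, 12.37, 12.06, 12.12 and 12.69 in PPARα/CREB3L3-/- and 11.83, 11.97, 11.47 and 12.00 in WT. Every fasted liver was above every ketogenic liver, and on the diet all 7 livers without PPARα were below the 8 with it.

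Scd1 differed from ketogenic WT by -2.48 (SE 0.33, adjusted p = 2.8e-06) in PPARα-/-, a 5.57-fold fall, and by -1.86 (SE 0.31, adjusted p = 4.1e-05) in PPARα/CREB3L3-/-, a 3.62-fold fall. CREB3L3-/- livers were at 0.62 (95% interval -0.01 to 1.25). After the fast the differences were -0.88 (-1.56 to -0.20, adjusted p = 0.12756), 0.30 (-0.33 to 0.93) in CREB3L3-/- and 0.49 (-0.14 to 1.12) in the combined knockout, none called. The effect of the combined deletion differed between the regimens by -2.35 (SE 0.43, adjusted p = 3.9e-04). Set against PPARα-/-, the fasted combined knockout was higher by 1.37 (SE 0.33, adjusted p = 0.032487), and without fasted PPARα-/- replicate 1, the lowest liver of that group, by 0.99 and no longer called. The call was also lost without fasted PPARα/CREB3L3-/- replicate 1 (1.35) or 4 (1.24).

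Gpam, the first acyltransferase of triglyceride synthesis, fell in fasted PPARα-/- livers. It read 8.67, 9.47 and 9.40 in fasted PPARα-/-, 10.35, 10.41, 10.44 and 10.35 in CREB3L3-/-, 9.63, 9.47, 9.47 and 9.73 in PPARα/CREB3L3-/- and 10.15, 10.32, 10.06 and 10.10 in WT livers. All livers without PPARα were below all others, and every CREB3L3-/- liver was above every WT liver. The difference from WT was -0.98 (SE 0.18, adjusted p = 0.0012997) in PPARα-/- and -0.58 (95% interval -0.93 to -0.23, adjusted p = 0.023557) in PPARα/CREB3L3-/-, where it was not called, whereas the combined knockout was below CREB3L3-/- by a called difference of -0.81 (SE 0.17, adjusted p = 0.0022032).

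On the diet Gpam read 9.22, 9.80 and 9.34 in PPARα-/-, 9.86, 10.04, 9.58 and 10.15 in CREB3L3-/-, 9.35, 9.51, 8.68 and 9.50 in PPARα/CREB3L3-/- and 9.85, 9.83, 10.20 and 10.00 in WT livers. The difference of the combined knockout from WT was -0.71 (SE 0.17, adjusted p = 0.0026054). The lowest liver, PPARα/CREB3L3-/- replicate 3, also correlated least with its own group over all probe sets (mean r 0.9790). Without it the difference was -0.51 and not called, and the call was lost at -0.63 without WT replicate 3.

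Thrsp was called lower in each single knockout on the diet and not in the combined one, as was Acaca. On the diet it read 8.03, 8.27 and 7.86 in PPARα-/-, 9.09, 7.16, 6.75 and 7.18 in CREB3L3-/-, 10.29, 10.28, 10.02 and 10.40 in PPARα/CREB3L3-/- and 9.84, 9.19, 11.47 and 10.48 in WT livers. After the fast it read 7.84, 8.10 and 8.57 in PPARα-/-, 7.91, 7.65, 7.60 and 8.80 in CREB3L3-/-, 9.50, 9.09, 9.32 and 10.16 in PPARα/CREB3L3-/- and 7.38, 8.49, 8.20 and 8.37 in WT livers. The combined knockout lay above both single knockouts in every liver under both regimens. On the diet it lay inside the wide WT range, and after the fast it lay above every WT liver.

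Against ketogenic WT, Thrsp in PPARα-/- livers was at -2.19 (SE 0.45, adjusted p = 8.1e-04), a 4.58-fold fall. CREB3L3-/- livers were at -2.70 (SE 0.42, adjusted p = 8.4e-06), a 6.51-fold fall, but the combined knockout was at 0.00 (95% interval -0.86 to 0.86). Without WT replicate 3, the highest WT liver, these were -1.79, -2.29 and 0.41, and without CREB3L3-/- replicate 1 the CREB3L3-/- difference was -3.22. After the fast the single knockouts were at 0.06 (-0.87 to 0.99) and -0.12 (-0.99 to 0.74), and the combined one at 1.41 (0.54 to 2.27, adjusted p = 0.02767), which did not pass P under 0.001. The CREB3L3-/- effect differed between the regimens by -2.58 (SE 0.59, adjusted p = 0.0018734).

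The combined knockout was compared with each single knockout to ask what 1 deletion adds to the other. After the fast 3 of the 12 probe sets differed from PPARα-/-, all higher: Scd1 and both of Me1 (background 1.67% called in either direction). Median centring moved the share of higher among all calls there from 49.2% to 37.5%. Elovl6 and Gpam differed from CREB3L3-/-, both lower, 2 of 12 (5.28%). On the diet 3 of 12 differed from PPARα-/- (2.42%), both of Acaca and Thrsp, the last by 2.20 (SE 0.45, adjusted p = 0.0077699), and centring moved the higher share of all calls from 34.1% to 21.8%. Against CREB3L3-/- 7 of 12 differed (20.4%). Both of Acaca and Thrsp were higher there, the last by 2.70 (SE 0.42, adjusted p = 9.9e-06), and Srebf1, Acly, Scd1 and Gpam were lower. Scd1 was at -2.48 (SE 0.31, adjusted p = 3.4e-07). Among these 7, Acaca probe set 1 (0.46) and Gpam (-0.65) each lost the call when any of 5 of the 8 arrays was left out.

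The interaction of the deletions is the effect of CREB3L3 loss without PPARα minus its effect with PPARα. On the diet it was called for 3 of 12 probe sets (background 15.9%), all positive: Thrsp at 4.90 (SE 0.62, adjusted p = 8.6e-07), Acaca probe set 2 at 1.43 (SE 0.20, adjusted p = 2.6e-06) and Acaca probe set 1 at 1.2 (SE 0.17, adjusted p = 5.1e-06). For Thrsp, loss of CREB3L3 thus went with -2.70 in livers with an intact Ppara gene and with 2.20 in livers without PPARα. Among the ketogenic livers with an intact Ppara gene, Ppara signal was 8.01 to 8.99 in CREB3L3-/- and 10.37 to 10.54 in WT. The interaction of Srebf1 was 1.04 (95% interval 0.39 to 1.70, adjusted p = 0.016438) and not called. Both Acaca probe sets and Thrsp kept the call without any single array, with Thrsp between 4.49 and 5.41. In the same ketogenic interaction 6 of 7 hepatocyte markers were called positive and 0 negative, with a median of 0.68. Of all 18820 genes 8.2% were positive and 13% negative there. The part of this shift in the member values was not tested. After the fast 0 of 12 were called by limma (0.762% of all), and 5 had an unadjusted p under 0.05. Repeated quantile normalization moved the share of positive among all fasted calls from 44.3% to 54.7%. The fasted values were 1.47 for Thrsp (0.20 to 2.74) and 0.26 (-0.09 to 0.61) and 0.11 (-0.29 to 0.51) for Acaca. Without fasted PPARα-/- replicate 2, both Me1 probe sets passed after the fast, at 1.36 and 1.34.

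**Figure D3:**
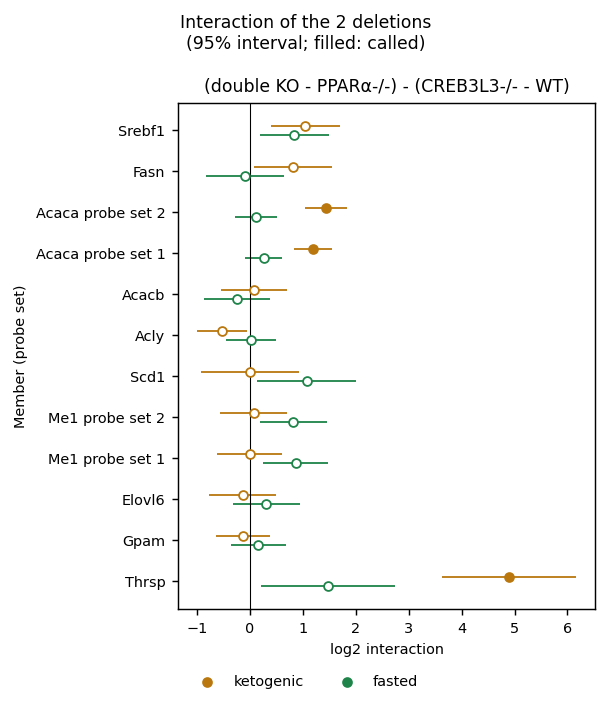
Interaction of the 2 deletions on the log2 scale (x axis) for each member (y axis) on the ketogenic diet and after the fast (colours), with 95% intervals and filled points for called values. Thrsp at 4.90 and the 2 Acaca probe sets at 1.43 and 1.2 are the filled points.

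The regimens were compared within each genotype, as a comparison of all that differs between feeding this diet and a fast. In WT, 5 of 12 probe sets were higher on the diet (background 2.53%) and 1 was lower (1.72%). Srebf1 rose by 1.37 (SE 0.22, adjusted p = 3.3e-04), Thrsp by 2.13 (SE 0.42, adjusted p = 0.0022064), Acaca by 0.58 (SE 0.12) and 0.74 (SE 0.13, adjusted p = 9.6e-04) and Acly by 0.68 (SE 0.16, adjusted p = 0.0073361). Scd1 fell by 3.62 on the log2 scale (SE 0.31, adjusted p = 1.4e-07), a 12.3-fold fall. Every one of these was without overlap between the regimens. Fasn was at 0.83 (95% interval 0.32 to 1.33, adjusted p = 0.038041), also without overlap but not called, and it passed without ketogenic WT replicate 1 (0.97) or 2 (0.99). Without WT replicate 3 on the diet, Srebf1 was at 1.04 and Thrsp at 1.73, both called, and Acly at 0.58 was not. The Acly call was also lost without ketogenic WT replicate 4 (0.58) or fasted WT replicate 1 (0.61) or 4 (0.64).

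Among the knockouts the rise of Srebf1 was called only in CREB3L3-/-, at 0.98 (SE 0.22, adjusted p = 6.1e-04). It was at -0.02 (95% interval -0.54 to 0.49) in PPARα-/- and -0.21 (-0.66 to 0.24) in PPARα/CREB3L3-/-. Thrsp was not called in any of the 3, with PPARα-/- livers at -0.12 (95% interval -1.12 to 0.88), CREB3L3-/- livers at -0.44 (-1.31 to 0.42) and the combined knockout at 0.73 (-0.13 to 1.59). Scd1 fell in all 3, at -5.22 (SE 0.35, adjusted p = 5.8e-11) in PPARα-/-, -3.30 (SE 0.31) in CREB3L3-/- and -5.97 (SE 0.31, adjusted p = 1.1e-13) in PPARα/CREB3L3-/-. Acacb fell by 1.13 (SE 0.21, adjusted p = 6.0e-05) in CREB3L3-/- and by 0.88 (SE 0.21, adjusted p = 0.001903) in PPARα/CREB3L3-/-. Acacb was at -0.66 in PPARα-/- and -0.59 in WT, not called.

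In number, 2 of 12 were higher (Me1 probe set 1 and Elovl6) and 1 lower in PPARα-/- (background 5.74% higher, 4.46% lower). In CREB3L3-/- 2 were higher (Srebf1 and Acly) and 2 lower (14.3% higher, 11.1% lower), and in PPARα/CREB3L3-/- 1 was higher (Acaca probe set 1) and 2 lower (7.42% higher, 7.09% lower). The 2 higher calls in PPARα-/- were at 0.89 and 0.92, and they were lost when any of 5 and any of 4 of the 6 arrays was left out, at 0.60 to 0.93 and 0.72 to 0.99. Of the other calls, Acly in CREB3L3-/- (0.68) was lost without ketogenic or fasted CREB3L3-/- replicate 3 (0.62 each), Acaca probe set 1 in PPARα/CREB3L3-/- (0.51) without ketogenic PPARα/CREB3L3-/- replicate 2 (0.46), and Acacb in PPARα/CREB3L3-/- without ketogenic PPARα/CREB3L3-/- replicate 3 (-0.79) or fasted PPARα/CREB3L3-/- replicate 3 (-0.83). Median centring moved the share of higher among all called probe sets from 59.5% to 78.8% in WT, from 56.3% to 70.7% in PPARα-/- and from 51.1% to 62.9% in PPARα/CREB3L3-/-.

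**Figure D4:**
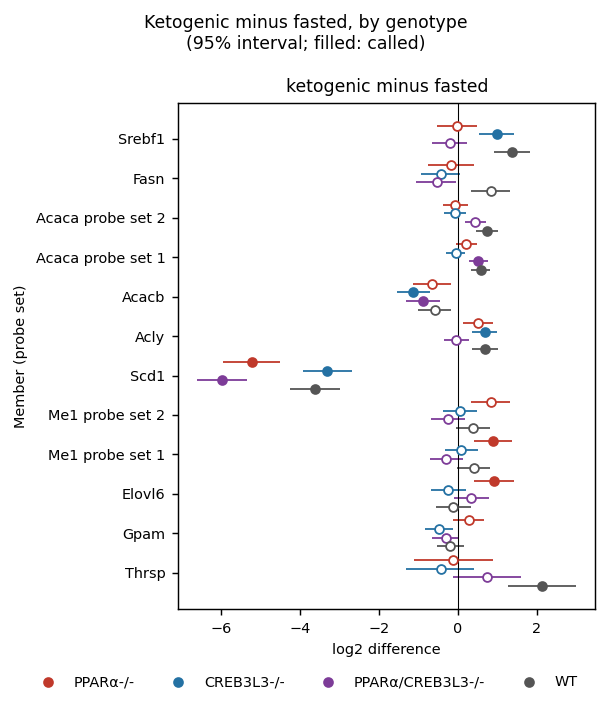
Log2 difference between ketogenic and fasted livers (x axis) of each member (y axis) in the 4 genotypes (colours), with 95% intervals and filled points for called values. Scd1 lies at -3.62 in WT and at -5.97 in PPARα/CREB3L3-/-, and Srebf1 lies right of 0 with a filled point in WT and CREB3L3-/-.

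Tested directly, the effect of a knockout differed between the regimens for 2 of 12 probe sets in PPARα-/- (background 4.83%), Srebf1 and Acaca probe set 2. It did so for 3 of 12 in CREB3L3-/- (13.8%), both of Acaca and Thrsp, and for 3 of 12 in PPARα/CREB3L3-/- (8.26%), Srebf1, Fasn and Scd1. All 8 calls were negative, that is, lower on the diet. Of 7 hepatocyte markers 3, 5 and 3 were called negative for these effects and 0 positive, with medians of -0.42, -0.38 and -0.30. Of all genes 2.82%, 8.3% and 6.36% were negative and 2.09%, 10.6% and 3.4% positive. For the PPARα-/- effect, Scd1 (-1.60, adjusted p = 0.036592) and Thrsp (-2.25, adjusted p = 0.030126) were just outside, and both passed without ketogenic WT replicate 2, at -1.87 and -2.60. Acaca was at -0.81 (SE 0.20) on probe set 2 in PPARα-/-, a call lost when any of 6 of the 14 arrays was left out, and at -0.64 (SE 0.16) and -0.82 (SE 0.19) on probe sets 1 and 2 in CREB3L3-/-, of which the first was lost when any of 11 of the 16 was left out (-0.54 to -0.64).

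Signal of other cell types moved with the ketogenic groups. In ketogenic CREB3L3-/- livers the mean level of 7 hepatocyte markers was 11.74 to 12.09, against 12.44 to 12.59 in WT, with 5 of 7 lower by the same test (11.9% of all 18820 genes lower, 16.7% higher). Their 8 macrophage markers averaged 8.81 to 8.88, against 7.86 to 8.59 in WT (2 higher), and their 6 stellate cell markers 8.07 to 8.45, against 7.22 to 7.54 (4 higher). Their 5 cholangiocyte markers averaged 4.70 to 5.15, against 4.08 to 4.27 in WT (2 higher), and their 5 neutrophil markers 4.31 to 7.14, against 3.59 to 4.87 (1 higher). In ketogenic PPARα-/- and PPARα/CREB3L3-/- livers, 5 of 8 macrophage markers were lower in each, with means of 7.02 to 7.48 and 6.95 to 7.57, and 3 of 7 hepatocyte markers were lower in each, with means of 12.14 to 12.20 and 12.28 to 12.40. In each of them 3 of 6 stellate cell markers were lower as well (7.15% and 10.3% of all genes lower). Of 6 endothelial markers 4 were lower and 1 higher in PPARα/CREB3L3-/-, with means of 7.45 to 8.06, against 8.32 to 8.52 in WT. Their means in PPARα-/- were 7.93 to 8.08. Means of 3 erythroid markers were 3.91 to 4.10 in PPARα-/-, 4.16 to 4.64 in CREB3L3-/-, 3.89 to 4.36 in PPARα/CREB3L3-/- and 4.85 to 5.61 in WT. Those of 6 T and NK cell markers were 3.04 to 3.40, 3.14 to 3.55, 3.09 to 3.28 and 3.47 to 4.15, in the same order. Of 4 B and plasma cell markers 3 were lower in PPARα-/-, with means of 2.71 to 2.91, against 3.36 to 3.68 in WT, and all 4 of these were below the array median in PPARα-/- livers. The part of these in the results was not tested. Adipocytes also express the pathway. Of 5 adipocyte markers 1 was called higher in ketogenic CREB3L3-/- and 0 in the other ketogenic knockouts, and 5 of 5 adipocyte markers were below the array median on every array, with mean levels of 2.86 to 3.18.

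Within groups, livers with more Srebf1 also had more Fasn, Thrsp and Gpam, but these relations did not hold without 2 of the livers. Deviations from the group mean over 30 livers gave r = 0.62 with Fasn (rho 0.48, permutation p = 0.00714, adjusted 0.0321), r = 0.57 with Thrsp (rho 0.50, permutation p = 0.00355, adjusted 0.0319) and r = 0.38 with Gpam (rho 0.45, permutation p = 0.0156, adjusted 0.0467), with permutation within groups, two-sided, and adjustment over 9 relations. The permutation p of rho was 0.0203, 0.00643 and 0.0184, with an adjusted value of 0.0457 for each. For Acaca, r was 0.42 (adjusted permutation p = 0.13) and rho 0.52 (adjusted 0.0457). Acly (r = 0.44), Scd1 (0.21), Elovl6 (0.07), Acacb (-0.02) and Me1 (-0.07) had adjusted permutation p values from 0.242 to 0.911.

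Without the 2 livers farthest from the median in Srebf1, ketogenic WT replicate 3 (0.99 above its group) and ketogenic PPARα-/- replicate 2 (0.41 above), r was 0.23 with Fasn, 0.37 with Thrsp and 0.17 with Gpam, and 0 of 9 relations passed (adjusted permutation p 0.0629 or more, 2 of 9 under 0.05 unadjusted). With each liver left out in turn, 0 to 3 of the 9 relations passed. Among the 15 ketogenic livers r was 0.72, 0.64 and 0.54 (adjusted permutation p = 0.0169, 0.00324 and 0.0187). Among the 15 fasted livers it was 0.15, 0.37 and -0.01 (adjusted permutation p = 0.968, 0.772 and 0.968).

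**Figure D5:**
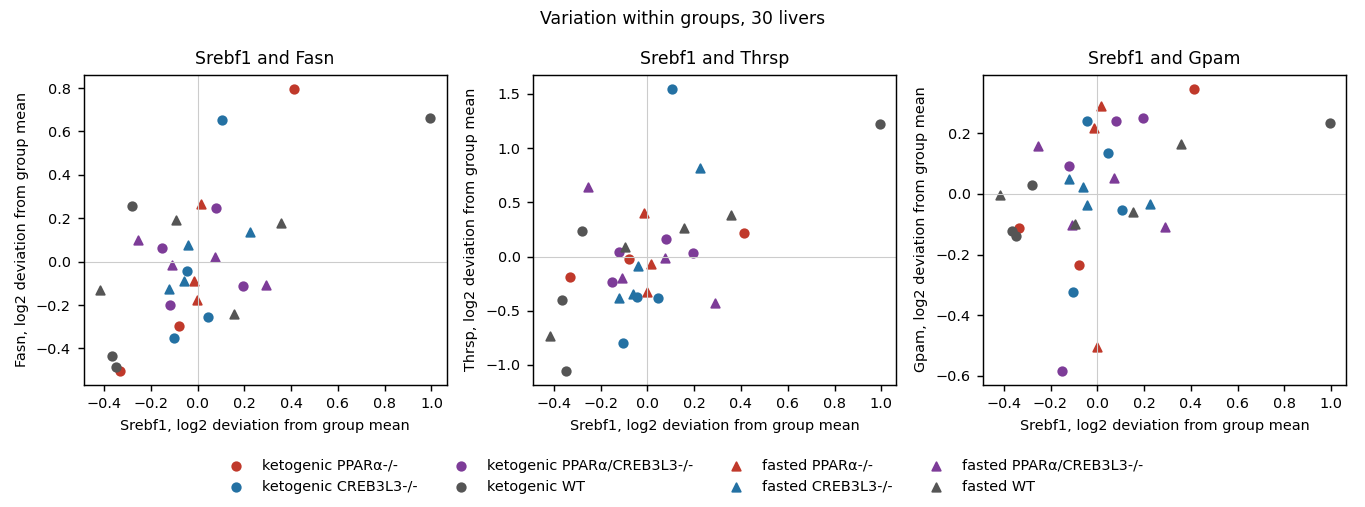
Deviation of Srebf1 from its group mean (x axis, log2) against that of Fasn, Thrsp and Gpam (y axes, log2) in 30 livers, by genotype (colour) and regimen (circles ketogenic, triangles fasted). The point at 0.99 on the x axis is ketogenic WT replicate 3, and r falls to 0.23 for Fasn without it and ketogenic PPARα-/- replicate 2.

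Over all 30 livers, group differences included, the 6 genes whose level followed Srebf1 most closely among 18819 others were Pcyox1 (r = 0.89), Vav2 (0.87), Rnf145 (0.86), Cmtm6 (0.85), Psme1 (0.85) and Akt2 (0.84). These are descriptions over livers that share groups. Within groups, r of these genes with Srebf1 was 0.31, 0.41, 0.24, 0.05, -0.13 and 0.04, in the same order. Of the members, Acly ranked 149 (r = 0.69), Fasn 266 (0.64), Me1 692 (0.53), Elovl6 733 (0.52), Gpam 831 (0.51) and Acaca 1425 (0.43). Thrsp ranked 5926 (0.17), Scd1 10453 (-0.02) and Acacb 18391 (-0.57).

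Other genes around the pathway were taken from 6 lists, each gene by its brightest probe set. Of all 18820 genes, 3.11% were called higher and 2.58% lower in fasted PPARα-/-, 0.648% and 0.893% in fasted CREB3L3-/-, and 5.81% and 3.95% in fasted PPARα/CREB3L3-/- livers. On the diet these shares were 6.45% and 7.15% in PPARα-/-, 16.7% and 11.9% in CREB3L3-/-, and 7.44% and 10.3% in PPARα/CREB3L3-/- livers. Of 18 measured genes for SREBP-1 processing and regulation, 11 were lower and 0 higher in ketogenic CREB3L3-/- livers, with a median of -0.61 beside -0.05 over all genes. Among them were Mlxipl, which encodes the glucose-sensing factor ChREBP (-1.53, SE 0.21, adjusted p = 9.0e-07), Rxra, the partner of LXR and PPARα (-1.08, SE 0.08), and Scap, the escort of SREBP (-0.63, SE 0.08). In ketogenic PPARα-/- 4 of 18 were lower, with Mlxipl at -1.17 (SE 0.22), and in ketogenic PPARα/CREB3L3-/- 8 were lower and 1 higher, with Insig1, a retention protein of SREBP, at -1.87 (SE 0.29, adjusted p = 1.4e-05) and Nr1h3, which encodes LXRα, at -0.96 (SE 0.11). In fasted CREB3L3-/- livers the 1 gene lower of the 18 was Insig2 (-1.22, SE 0.23, adjusted p = 0.006102), also a retention protein. Fasted PPARα-/- livers had 1 higher, and fasted combined knockout livers 1 higher and 2 lower.

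Among genes that supply acetyl-CoA, citrate and NADPH, 6 of 14 were higher on the diet than after the fast in WT and 0 lower (3.6% of all genes higher and 1.63% lower), with Pklr, liver pyruvate kinase, at 1.45 (SE 0.17, adjusted p = 7.9e-06) and Aacs, acetoacetyl-CoA synthetase, at 2.01 (SE 0.30). Pgd, an NADPH source of the pentose phosphate pathway, was higher by 0.97 (SE 0.17, adjusted p = 7.1e-04) in fasted PPARα-/-, and by 1.68 (SE 0.17), 2.41 (SE 0.16) and 1.21 (SE 0.16) in ketogenic PPARα-/-, CREB3L3-/- and PPARα/CREB3L3-/- livers. In those ketogenic groups 2, 3 and 2 of the 14 were higher and 3, 6 and 5 lower. Of all genes 6.45%, 16.7% and 7.44% were higher there and 7.15%, 11.9% and 10.3% lower.

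Of 18 genes of elongation, activation and esterification, 6 were lower and 1 higher in fasted PPARα-/-, 1 lower in fasted CREB3L3-/-, and 6 lower and 2 higher in the fasted combined knockout. Of all genes 2.58%, 0.893% and 3.95% were lower there and 3.11%, 0.648% and 5.81% higher. Elovl5, an elongase of polyunsaturated fatty acids, was at -0.99 (SE 0.15, adjusted p = 6.7e-04) in fasted CREB3L3-/- and -1.95 (SE 0.15) in fasted PPARα/CREB3L3-/-. Acsl5, an acyl-CoA synthetase, was at -1.38 (SE 0.10, adjusted p = 6.2e-10) in fasted PPARα-/-. On the diet 8, 8 and 7 of 18 were lower and 1, 3 and 0 higher. Of all genes 7.15%, 11.9% and 10.3% were lower on the diet and 6.45%, 16.7% and 7.44% higher. The elongase Elovl3 was at -5.26 (SE 0.51, adjusted p = 4.2e-09) in ketogenic CREB3L3-/- and -4.68 (SE 0.51) in ketogenic PPARα/CREB3L3-/-. The desaturase Scd2 was at 2.87 (SE 0.27) in ketogenic CREB3L3-/- livers, where Scd1 was not called.

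Of 6 measured LXR targets 5 were lower in ketogenic PPARα-/-, with Abca1, a cholesterol exporter, at -1.29 (SE 0.17, adjusted p = 3.2e-06), 2 lower and 1 higher in CREB3L3-/- and 4 lower in PPARα/CREB3L3-/-. After the fast 1, 0 and 1 were lower. For this list and the next, 7.15%, 11.9% and 10.3% of all genes were lower on the diet and 6.45%, 16.7% and 7.44% higher. After the fast 2.58%, 0.893% and 3.95% of all genes were lower and 3.11%, 0.648% and 5.81% higher. Of 9 genes of malonyl-CoA and AMPK control, 0 were higher and 1 lower in fasted PPARα-/- and in fasted CREB3L3-/-, and 1 higher and 2 lower in fasted PPARα/CREB3L3-/-. On the diet 1 was higher and 3 lower in PPARα-/-, 4 higher and 5 lower in CREB3L3-/-, and 0 higher and 3 lower in PPARα/CREB3L3-/-. Cpt1a, the carnitine transferase that malonyl-CoA inhibits, was lower in fasted CREB3L3-/- (-0.71, SE 0.08, adjusted p = 5.4e-06), in fasted PPARα/CREB3L3-/- (-1.18, SE 0.08) and in all 3 knockouts on the diet (-0.64 in PPARα-/- and -1.35 in CREB3L3-/-). Mlycd, which degrades malonyl-CoA, was lower in fasted PPARα-/- (-0.56, SE 0.13).

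Genes of cholesterol synthesis, which SREBP-2 drives, had higher signal in fasted livers without CREB3L3. Of 15 measured genes 11 were higher and 0 lower in fasted CREB3L3-/-, with a median of 1.22, and 9 were higher in fasted PPARα/CREB3L3-/-, with a median of 1.2. Of all genes 0.648% and 5.81% were higher in these groups. Sqle, squalene epoxidase, was at 1.95 (SE 0.43, adjusted p = 0.018199) and 2.54 (SE 0.43, adjusted p = 1.7e-04), and Srebf2 was at 0.61 (SE 0.14, adjusted p = 0.021519) in fasted CREB3L3-/-. In ketogenic PPARα/CREB3L3-/- livers 5 of 15 were lower, with Idi1, an isomerase of the isoprenoid steps, at -2.38 (SE 0.43, adjusted p = 1.4e-04), and 1 of 15 was lower in each ketogenic single knockout. Of all genes 10.3% were lower in ketogenic PPARα/CREB3L3-/-, 7.15% in PPARα-/- and 11.9% in CREB3L3-/- livers.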

How the data were processed

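Liver RNA of 30 mice was measured on 1 Affymetrix Mouse Gene 1.1 ST array each. The deposited values are log2 RMA values (background correction, quantile normalization and median polish by the authors, with AffyPLM; its version is not given in the sources used here). They were used as deposited. Their probe set IDs are the manufacturer's transcript clusters, whereas the methods name a remapped chip definition. Arrays have no read depth, so their number limits the precision. Probe sets were named through the platform's annotation: 21218 of 35556 carry 1 gene symbol, 1881 several and 12457 none. Groups followed the labels, which give 1 liver per array.

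The 8 group means were fitted to all probe sets in limma 3.58.1 (R 4.3.3), with an intensity trend, 22 residual and 3.47 prior degrees of freedom. A call needed P under 0.001 and a fold change above 1.2, and p values were adjusted by the Benjamini-Hochberg method across the whole array. Relations within groups were tested with 100000 permutations (Python 3.11.15, SciPy 1.17.1, NumPy 2.4.6, pandas 2.3.3, matplotlib 3.10.9). Both steps were tested on simulated data. Further lists held 157 genes, of which 135 were measured. Values of every array are given for members called in a knockout against WT or between the WT regimens, and ranges otherwise. Alternatives were the arrays in the fit, the replicate number as a block, the variance model, array weights, scaling, filters, the call rule, the probe sets per gene and leaving out each array. The members, lists and tests were chosen with earlier results of these data known.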

Additional observations from a re-analysis of the deposited data

Results flagged for a closer look

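Of 72 sets of 4 values, each a probe set in a group of 4 livers, 2 held a lone extreme value. This share is below the 1 in 20 or so that chance gives. Srebf1 read 9.49 in ketogenic WT replicate 3, against 8.13 to 8.21 in the other WT livers. Acaca probe set 1 read 8.22 in ketogenic WT replicate 2, against 8.60 to 8.64 in the others.

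On the ketogenic diet the effect of CREB3L3 loss differed by PPARα genotype for Thrsp (4.90), Acaca probe set 2 (1.43) and Acaca probe set 1 (1.2). Between the regimens, ketogenic minus fasted, the PPARα-/- effect differed for Srebf1 (-1.39) and Acaca probe set 2 (-0.81). The CREB3L3-/- effect differed for Thrsp (-2.58), Acaca probe set 2 (-0.82) and Acaca probe set 1 (-0.64). The PPARα/CREB3L3-/- effect differed for Scd1 (-2.35), Srebf1 (-1.58) and Fasn (-1.37). Each is a difference of log2 effects tested in limma.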

How the results depend on the processing

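Of 228 member values tested, 66 were called, and 24 kept the call under every alternative and every single array left out. No called value changed sign. The IBMT variance model, median centring and the filter on dim probe sets lost no call. P under 0.001 with no fold criterion is a looser rule on the same fit, so it could not lose one.

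With a fold beyond 2, the number of the 12 probe sets called was 0 in place of 1 in fasted CREB3L3-/- against WT, 1 in place of 2 in fasted PPARα/CREB3L3-/- against CREB3L3-/-, and 2 in place of 4 in ketogenic CREB3L3-/- and 3 in place of 6 in ketogenic PPARα/CREB3L3-/- against WT. It was 1 in place of 3 in ketogenic PPARα/CREB3L3-/- against PPARα-/- and 3 in place of 7 against CREB3L3-/-. Between regimens it was 1 in place of 3 in PPARα-/- and PPARα/CREB3L3-/-, 2 in place of 4 in CREB3L3-/- and 3 in place of 6 in WT, and for the regimen difference 1 in place of 2 for PPARα-/- and 1 in place of 3 for CREB3L3-/-. With an adjusted p under 0.05 it was 5 in place of 2 in fasted PPARα/CREB3L3-/- against WT (also with array weights), 12 in place of 7 in ketogenic PPARα/CREB3L3-/- against CREB3L3-/- and 4 in place of 2 for the PPARα-/- regimen difference.

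With arrays of the compared groups only, 21 of 55 called member values were lost, and the count was 3 in place of 5 in fasted PPARα-/-, 2 in place of 1 in fasted CREB3L3-/-, 4 in place of 2 in fasted PPARα/CREB3L3-/- and 0 in place of 4 in ketogenic CREB3L3-/- against WT, and 5 in place of 2 in fasted PPARα/CREB3L3-/- against CREB3L3-/-. With arrays of 1 regimen only, these were 2 in fasted CREB3L3-/-, 5 in fasted PPARα/CREB3L3-/- and 2 in ketogenic CREB3L3-/- against WT, and 4 against fasted CREB3L3-/-. Without an intensity trend, or with a robust one, 1 in place of 3 was called between regimens in PPARα-/-, and with 1 probe set per member 1 in place of 2 for the PPARα-/- regimen difference. The cause was not tested. Relations of Srebf1 within groups numbered 0 in place of 3 among fasted livers and without the 2 farthest livers, and r of Srebf1 with Gpam within groups was -0.014 among fasted livers, against 0.38 over all 30.

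With single arrays left out, counts ran from 0 to 1 in fasted CREB3L3-/- against WT, 0 to 2 for the fasted interaction, 1 to 4 between regimens in PPARα-/-, 0 to 4 for the PPARα-/- regimen difference and 0 to 3 for the Srebf1 relations. Without fasted PPARα-/- replicate 2 the count was 2 for the interaction and 4 between regimens. For the regimen difference it was 0 without ketogenic PPARα-/- replicate 3 and 4 without ketogenic PPARα-/- replicate 2 or WT replicate 2. The Srebf1 relations numbered 0 or 1 without fasted WT replicate 2, any ketogenic PPARα-/- liver, ketogenic CREB3L3-/- replicate 3, or ketogenic WT replicate 1, 3 or 4.

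The sources do not say whether replicate numbers mark shared batches. Same-numbered livers of different groups deviated together at a mean r of 0.01 (-0.11 to 0.12), and other pairs ranged from -0.15 to 0.17. Of the 30 arrays, 12 deviated most like the livers of their own number. A batch shared by part of the livers was not tested. With the replicate block, Scd1 in fasted PPARα/CREB3L3-/- against PPARα-/- (1.31), Acaca probe set 1 for the CREB3L3-/- regimen difference (-0.64) and Fasn for the PPARα/CREB3L3-/- one (-1.37) lost the call, and Me1 probe set 1 in ketogenic PPARα/CREB3L3-/- against CREB3L3-/- gained it (-0.75).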
